A study of Mus musculus with 4 samples.

Results

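Mast cells and basophils carry granules of heparin or chondroitin sulphate that hold histamine and proteases, and they release them when IgE on the cell surface is cross-linked. A set of 9 genes of these cells was followed here. It comprised the mast cell proteases Mcpt4, Tpsb2, Cma1 and Cpa3, the basophil proteases Mcpt8 and Prss34, the IgE receptor chains Fcer1a and Ms4a2, and the histamine-forming enzyme Hdc. The members were taken by name from the platform's annotation, as probe sets with exactly 1 gene symbol among them. All 9 genes were found, each on 1 probe set, out of 35556 probe sets covering 19938 named genes.

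RNA of Flt3-negative LSK cells was hybridised to whole-transcript Affymetrix Mouse Gene 1.0 ST arrays. LSK cells are bone marrow cells that lack lineage markers and carry Sca-1 and c-Kit, and the fraction without surface Flt3 is enriched for blood stem cells. The group labelled GABPα-deficient came from Mx1Cre-GABPa(FL/-) mice, with 1 floxed and 1 null allele of Gabpa, and held 2 arrays. The control group came from Mx1Cre-GABPa(FL/+) mice, with 1 floxed and 1 wild-type allele, and held 2 arrays. Gabpa encodes the DNA-binding subunit of the ETS-family factor GABP. All mice carried the Mx1-Cre transgene, whose interferon-inducible promoter is active beyond the sorted cells, and all were given pIpC, a synthetic double-stranded RNA that induces interferon and so the Cre. Cells were taken 4 days after the last dose from mice aged 6 to 8 weeks, of a stock backcrossed to C57BL/6 for 4 generations. No label says if a sample was 1 animal or a pool, so the p-values reflect the spread among these 4 arrays, which may be technical. The RNA input is given only as a range, 800 pg to 50 ng, for all 4 samples. Its part in the gaps between arrays was not tested.

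The deposited values were log2 expression values from RMA, and a difference below is the mean of the arrays labelled deficient minus the control mean, given with its moderated standard error (SE) from limma. Gabpa itself read 6.43 and 7.85 on the arrays labelled deficient, against 8.43 and 7.28 on the control arrays, so the groups overlapped (difference −0.71, SE 0.68, limma adjusted p = 0.605). Whether its probes lie in the deleted exons was not tested, so the groups keep their labelled names. The fit called 0 of 35556 probe sets at a Benjamini-Hochberg adjusted p under 0.05 (lowest adjusted p = 0.169), so every difference below is given as a value. Among all probe sets, 5.25% had a lower and 6.64% a higher mean in the deficient group at an unadjusted p under 0.05. That split became 6.61% lower and 3.35% higher after cyclic loess.

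Mast cells arise from marrow progenitors but fill their granules mostly after settling in tissues, where connective tissue mast cells make the chymases and the tryptase of this set. Basophils mature in the marrow and circulate. Both cell types bind IgE through a high-affinity receptor built of an α chain, a β chain and a pair of γ chains.

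Among the 9 genes, the chymase and tryptase genes were far higher on 1 array labelled deficient, moderately higher on the other, and low on both control arrays. The remaining genes did not share that pattern. In 5 of the 9 genes both arrays labelled deficient lay above both control arrays, against 38.9% of all probe sets, and in 0 of 9 they lay below both, against 14.0%. Counted in either direction, the groups were apart in 5 of 9 genes and in 52.9% of probe sets. At an unadjusted p under 0.05, 1 of the 9 was higher (Mcpt8) and 0 were lower, which is near the 6.64% and 5.25% of all probe sets. The median difference of the 9 genes was 0.72, against 0.15 for all probe sets, and adjusted p ran from 0.406 to 0.702. In bulk RNA, a change in the number of cells of a type and a change in RNA per cell cannot be told apart.

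**Figure D1:**
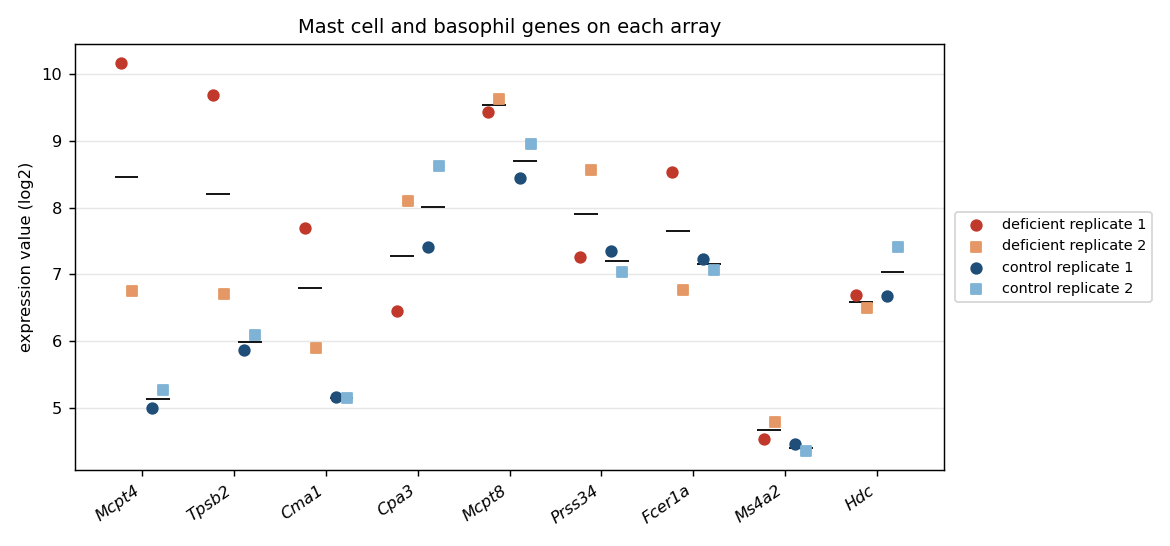
Expression values (log2) of the 9 genes on each array, with the arrays labelled deficient on the left of each gene and the control arrays on the right; black lines are group means over 2 arrays. Mcpt4, Tpsb2, Cma1 and Fcer1a were highest on deficient replicate 1, at 10.16, 9.68, 7.70 and 8.53, while Cpa3 was lowest there, at 6.45.

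Mcpt4 encodes mouse mast cell protease 4, a chymase of connective tissue mast cells that cleaves after aromatic residues. It read 10.16 and 6.75 on the arrays labelled deficient, against 5.002 and 5.27 on the control arrays. Both arrays labelled deficient lay above both controls, and deficient replicate 1 stood far above deficient replicate 2. The means were 8.45 ± 2.41 and 5.14 ± 0.19 (SD, n = 2 each), a difference of 3.32 (SE 1.25, limma adjusted p = 0.421), or a 9.97-fold ratio of geometric means. Both control values lay below the medians of their arrays (5.87 and 5.91). Whether they lay above background was not tested, which limits what the ratio means. The difference was 1.61 without deficient replicate 1 (adjusted p = 0.361) and 5.02 without deficient replicate 2 (adjusted p = 0.228). The size of the full difference exceeded that of 99.8% of all probe sets.

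Tpsb2 encodes the tryptase mMCP-6, a trypsin-like protease stored on heparin. It read 9.68 and 6.71 on the arrays labelled deficient, against 5.87 and 6.10 on the control arrays. The groups did not overlap, and again deficient replicate 1 was the high array. The difference was 2.21 (SE 1.09, adjusted p = 0.447), with 0.73 without deficient replicate 1 and 3.70 without deficient replicate 2. Related tryptases can share probe sequence, and cross-hybridisation among them was not tested.

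Cma1 encodes mMCP-5, a further chymase-family protease of connective tissue mast cells. It read 7.70 and 5.90 on the arrays labelled deficient, against 5.17 and 5.15 on the control arrays. The control arrays were almost equal, and both arrays labelled deficient lay above them. All but the value on deficient replicate 1 lay below the median of their array (5.87 and 5.91 for the controls, 6.01 for deficient replicate 2). Whether those values lay above background was not tested. The difference was 1.65 (SE 0.67, adjusted p = 0.426), with 0.74 without deficient replicate 1 and 2.55 without deficient replicate 2.

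Cpa3, mast cell carboxypeptidase A3, trims C-terminal aromatic residues and is also transcribed in early blood progenitors. It did not follow the chymases and the tryptase. It read 6.45 and 8.09 on the arrays labelled deficient, against 7.41 and 8.63 on the control arrays. The groups overlapped, and the lowest value fell on deficient replicate 1, the array with the highest Mcpt4, Tpsb2 and Cma1. The difference was −0.75 (SE 0.75, adjusted p = 0.623), and without deficient replicate 1 it was 0.076.

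Promoter stretches of 4 members are shown because Mcpt4 and Cma1 were high on the same array, while Cpa3 was low there and Mcpt8, the direct neighbour of Mcpt4 on its chromosome, was close to equal on both arrays labelled deficient. They come from RefSeq (GRCm38.p6), run 5′ to 3′ on the gene's strand from 250 bases before to 50 bases after the annotated start, and all 4 genes lie on the minus strand. The positions are chr14:56062261-56062560 for Mcpt4, chr14:55944626-55944925 for Cma1, chr3:20242132-20242431 for Cpa3 and chr14:56085148-56085447 for Mcpt8. Capitals mark GATAA, the core that GATA factors bind, or its reverse complement TTATC.
Mcpt4: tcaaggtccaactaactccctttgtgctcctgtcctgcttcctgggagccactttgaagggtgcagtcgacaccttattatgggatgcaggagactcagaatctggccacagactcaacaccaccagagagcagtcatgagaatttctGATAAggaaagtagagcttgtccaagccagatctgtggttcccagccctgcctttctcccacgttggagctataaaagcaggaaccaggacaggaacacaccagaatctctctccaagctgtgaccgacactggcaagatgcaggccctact
Cma1: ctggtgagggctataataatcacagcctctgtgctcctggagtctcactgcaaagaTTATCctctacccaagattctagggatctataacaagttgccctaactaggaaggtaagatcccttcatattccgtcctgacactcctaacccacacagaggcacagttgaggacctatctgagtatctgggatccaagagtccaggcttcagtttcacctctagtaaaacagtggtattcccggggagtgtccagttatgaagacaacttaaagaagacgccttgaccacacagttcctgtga
Cpa3: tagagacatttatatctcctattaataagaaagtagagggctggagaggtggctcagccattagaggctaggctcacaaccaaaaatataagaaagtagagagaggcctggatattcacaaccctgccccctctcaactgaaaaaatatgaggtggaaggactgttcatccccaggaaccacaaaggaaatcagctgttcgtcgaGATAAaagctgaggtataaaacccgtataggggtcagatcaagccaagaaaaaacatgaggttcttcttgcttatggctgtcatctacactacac
Mcpt8: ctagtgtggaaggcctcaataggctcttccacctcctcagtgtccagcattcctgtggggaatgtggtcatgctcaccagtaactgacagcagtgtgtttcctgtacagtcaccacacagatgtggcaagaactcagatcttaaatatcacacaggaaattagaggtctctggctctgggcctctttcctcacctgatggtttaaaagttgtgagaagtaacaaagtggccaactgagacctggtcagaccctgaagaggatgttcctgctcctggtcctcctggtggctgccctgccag

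GATAA occurred once each in the Mcpt4, Cma1 and Cpa3 stretches, and 0 times in that of Mcpt8. The first base of the match lay 102 bases before the start in Mcpt4, 194 in Cma1 and 45 in Cpa3. Whether the motif has a part in the array values was not tested. Of the 9 members, 8 had a promoter row in the RefSeq table, Tpsb2 being the exception, and 6 of these 8 held GATAA on either strand, against 25.4% of 32851 promoter stretches of the same length. CATGTG, an E-box bound by the mast cell factor MITF, was found on either strand in Prss34 and Fcer1a, 2 of the 8, against 14.2% of all stretches. CCGGAA, an ETS core of the kind GABP binds, was found in 0 of the 8, against 14.9% of all stretches. The shares cover all stretches and were not matched to the members for base composition, which alone can change how often a motif occurs. The motifs did not overlap each other in the members' stretches, and a match is a run of letters, not a measured site.

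Mcpt8 encodes mMCP-8, a granzyme-like protease that, despite its name, marks mouse basophils. It read 9.44 and 9.63 on the arrays labelled deficient, against 8.44 and 8.95 on the control arrays. The arrays labelled deficient were close to each other, and both lay above both controls. The means were 9.53 ± 0.14 and 8.70 ± 0.36 (SD, n = 2 each), a difference of 0.83 (SE 0.24, unadjusted p = 0.0273, limma adjusted p = 0.406). Leaving out 1 array at a time gave differences from 0.58 to 1.09.

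Prss34 encodes mMCP-11, a tryptase-like protease of mouse basophils. It read 7.26 and 8.57 on the arrays labelled deficient, against 7.35 and 7.04 on the control arrays. Here the high array was deficient replicate 2, and deficient replicate 1 lay between the controls, so the groups overlapped. The difference was 0.72 (SE 0.51, adjusted p = 0.520), with 1.37 without deficient replicate 1 and 0.061 without deficient replicate 2. The basophil proteases thus did not share the array order of the mast cell chymases and tryptase.

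Fcer1a encodes the IgE-binding α chain of the high-affinity receptor. It read 8.53 and 6.76 on the arrays labelled deficient, against 7.24 and 7.07 on the control arrays. The arrays labelled deficient held both the highest and the lowest value, with the controls between them. The difference was 0.49 (SE 0.66, adjusted p = 0.702), and it was −0.39 without deficient replicate 1 and 1.37 without deficient replicate 2.

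Ms4a2 encodes the β chain, which amplifies the receptor's signal. It read 4.54 and 4.79 on the arrays labelled deficient, against 4.46 and 4.36 on the control arrays, a difference of 0.26 (SE 0.17, adjusted p = 0.502). The Ms4a2 difference was 0.13 without deficient replicate 2, 0.38 without deficient replicate 1 and 0.064 after cyclic loess. It was the member whose mean over the 4 arrays lay below the median of all probe sets, and whether it lay above background was not tested, since no detection calls were used here. Hdc, which makes histamine from histidine, read 6.69 and 6.49 on the arrays labelled deficient, against 6.68 and 7.40 on the control arrays. The groups overlapped, with control replicate 2 the high array, and the difference was −0.45 (SE 0.30, adjusted p = 0.509). Without control replicate 2 the Hdc difference was −0.088, and without control replicate 1 −0.81.

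The gap between the arrays labelled deficient was wide for most members. It exceeded that of more than 90% of all probe sets in 6 of the 9 genes, with opposite signs. Replicate 1 minus replicate 2 was 3.41 for Mcpt4, 2.97 for Tpsb2, 1.80 for Cma1 and 1.76 for Fcer1a. It was −1.64 for Cpa3 and −1.31 for Prss34. The Mcpt4 gap was larger than that of 99.3% of probe sets, whose median gap was 0.23. Mcpt8, Hdc and Ms4a2 differed between those arrays by −0.19, 0.20 and −0.25. On the control arrays Cpa3 had the widest gap of the 9 genes (−1.22), larger than that of 94.9% of probe sets.

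**Figure D2:**
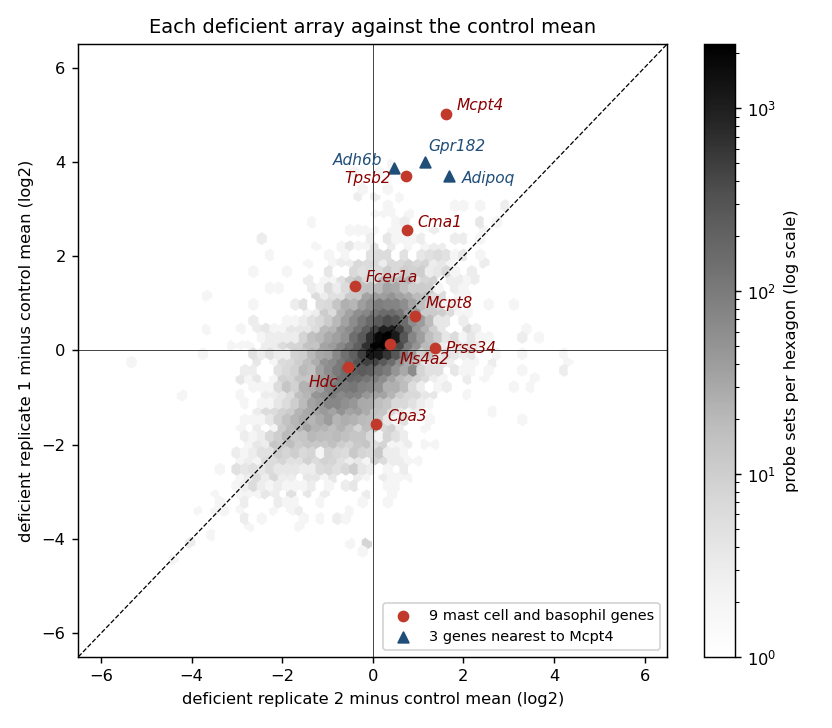
Each array labelled deficient minus the control mean (log2), replicate 2 on the horizontal and replicate 1 on the vertical axis; grey hexagons count all 35556 probe sets on a log scale, circles are the 9 genes, triangles the 3 genes nearest to Mcpt4, and the dashed line marks equal values. Mcpt4 lies at 1.61 and 5.02 and Tpsb2 at 0.73 and 3.70, far above the line, while Cpa3 lies at 0.076 and −1.57, below it.

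The array pattern of Mcpt4, the member with the widest range over the 4 arrays (5.16), was matched against all other named genes by the root mean square distance of mean-centred values. The 3 nearest genes outside the set were Gpr182, a chemokine-binding receptor of sinusoidal and lymphatic endothelium (distance 0.43), Adh6b, an alcohol dehydrogenase (0.58), and Adipoq, which encodes the adipocyte hormone adiponectin (0.60). Gpr182 read 8.70 and 5.86 on the arrays labelled deficient, against 4.66 and 4.75 on the control arrays. Adipoq read 9.67 and 7.64 on the arrays labelled deficient, against 6.04 and 5.88 on the control arrays. Tpsb2 lay at a distance of 0.57 from Mcpt4 and Cma1 at 1.02, against 2.73 for Cpa3. The measure rests on 4 arrays and describes these arrays alone.

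Cma1, Mcpt4 and Mcpt8 sit in the chymase cluster of chromosome 14, and Prss34 and Tpsb2 in the tryptase cluster of chromosome 17. Between Cma1 and Gzmb, RefSeq lists 15 protein-coding genes on chromosome 14, of which 13 were measured. Mcpt1 and Mcpt2, proteases of mucosal mast cells that lie between Cma1 and Mcpt4, differed by 0.012 (SE 0.20) and −0.0034 (SE 0.15). Mcpt1 read 4.05 and 4.41 on the arrays labelled deficient, against 4.15 and 4.30 on the control arrays. Ctsg, the neutrophil and mast cell protease cathepsin G, read 11.08 and 10.01 on the arrays labelled deficient, against 10.98 and 11.02 on the control arrays. The spike of Mcpt4 and Cma1 on deficient replicate 1 was therefore not seen in Mcpt1, Mcpt2 or Ctsg. Mcpt1 and Mcpt2 read below the array medians (5.87 to 6.01), and whether they lay above background was not tested. Gzme, a granzyme gene further along, read 4.59 and 4.43 on the arrays labelled deficient, against 3.68 and 4.02 on the control arrays. The granzyme genes Gzmd, Gzmg, Gzmn, Gzmf and Gzmc, which follow it, differed by 0.023, 0.035, 0.11, 0.35 and 0.32. Gzme and these genes also read below the array medians, and whether they lay above background was not tested. Gzmb, the cytotoxic granzyme B at the far end, read 6.71 and 7.10 on the arrays labelled deficient, against 5.11 and 5.25 on the control arrays (difference 1.73, SE 0.20, adjusted p = 0.231).

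**Figure D3:**
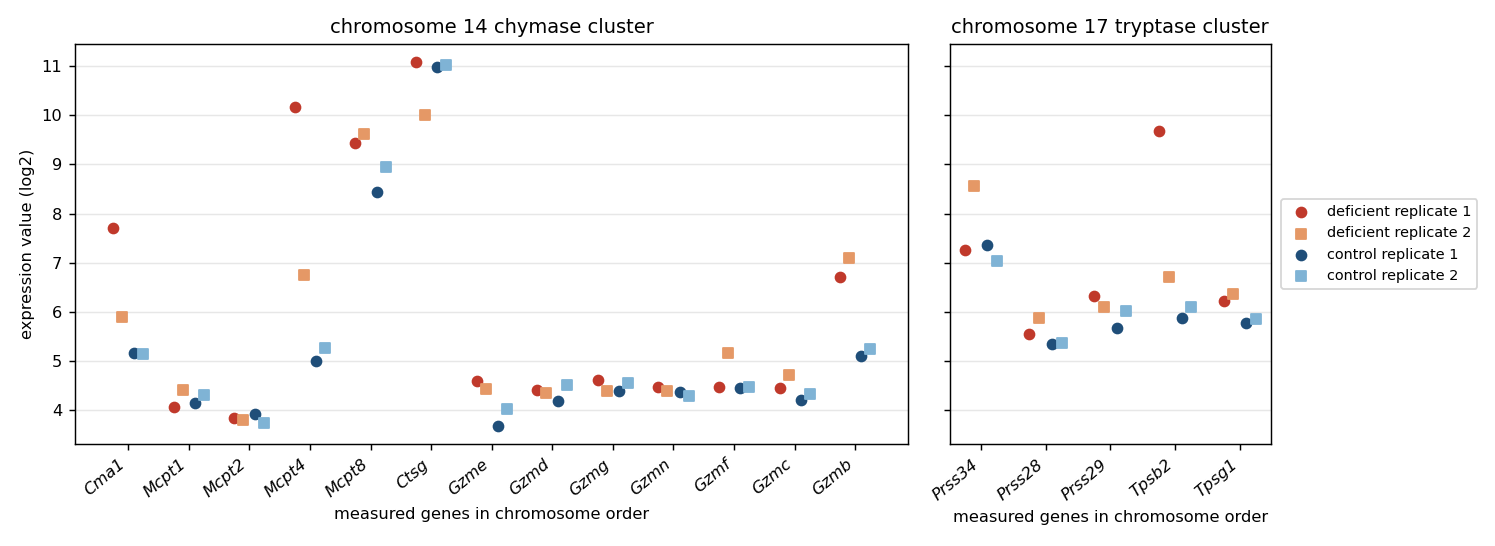
Expression values (log2) of the measured protein-coding genes of the chymase cluster (left panel) and the tryptase cluster (right panel), in chromosome order and not to distance; within each gene the arrays labelled deficient stand left of the control arrays. Cma1, Mcpt4 and Tpsb2 reach 7.70, 10.16 and 9.68 on deficient replicate 1, while Mcpt1 and Mcpt2 stay between 3.73 and 4.41 on all 4 arrays.

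On chromosome 17 all 5 protein-coding genes from Prss34 to Tpsg1 were measured. Tpsg1, a membrane-anchored tryptase, read 6.22 and 6.35 on the arrays labelled deficient, against 5.77 and 5.86 on the control arrays, a difference of 0.47 (SE 0.15, adjusted p = 0.408). Tpsab1, the tryptase mMCP-7, which RefSeq lists as a transcribed pseudogene in the C57BL/6J reference, differed by 0.50 (SE 0.14, adjusted p = 0.406). Its values were 5.05 and 5.15 on the arrays labelled deficient, against 4.58 and 4.61 on the control arrays. Neither gene showed the spike of Tpsb2 on deficient replicate 1. In the list of other mast cell and basophil proteases, 6 of 8 genes were measured, and at an unadjusted p under 0.05 3 were higher and 0 lower, with a median difference of 0.24. Over all probe sets those calls made up 6.64% and 5.25%.

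Genes for granule contents and mediators went in both directions. Slc18a2, the vesicular transporter that loads histamine and other amines into granules, read 5.78 and 5.61 on the arrays labelled deficient, against 8.13 and 8.55 on the control arrays. The groups were far apart, and the difference was −2.64 (SE 0.21, adjusted p = 0.173). Alox5ap, which presents arachidonic acid to 5-lipoxygenase, differed by −1.06 (SE 0.24, adjusted p = 0.366), and the granule membrane tetraspanin gene Cd63 by −0.64 (SE 0.18, adjusted p = 0.404). Alox5, the 5-lipoxygenase gene, differed by 0.56 (SE 0.16, adjusted p = 0.406). Of the 11 genes of this list 10 were measured, with 3 lower and 2 higher at an unadjusted p under 0.05 and a median of 0.34, against 5.25% lower and 6.64% higher over all probe sets.

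The signalling genes downstream of the IgE receptor were mostly lower on the arrays labelled deficient. Of 13 listed genes 12 were measured, and 7 of them were lower, against 0 higher, with an unadjusted p under 0.05, where 5.25% of all probe sets were lower and 6.64% higher. The list's median difference was −1.18, against 0.15 for all probe sets. Lcp2, the adaptor SLP-76, read 7.70 and 7.90 on the arrays labelled deficient, against 8.90 and 9.07 on the control arrays (difference −1.19, SE 0.17, adjusted p = 0.277). Plcg2, phospholipase C gamma 2, differed by −1.49 (SE 0.25, adjusted p = 0.305), the adaptor gene Gab2 by −1.17 (SE 0.22, adjusted p = 0.323) and the phosphatase gene Inpp5d, which encodes SHIP1, by −0.99 (SE 0.19, adjusted p = 0.333). These genes act downstream of many receptors of blood cells. Fcer1g, the shared γ chain, read 7.75 and 8.14 on the arrays labelled deficient, against 7.28 and 8.10 on the control arrays, with overlapping groups; it was named after its values were seen.

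**Figure D4:**
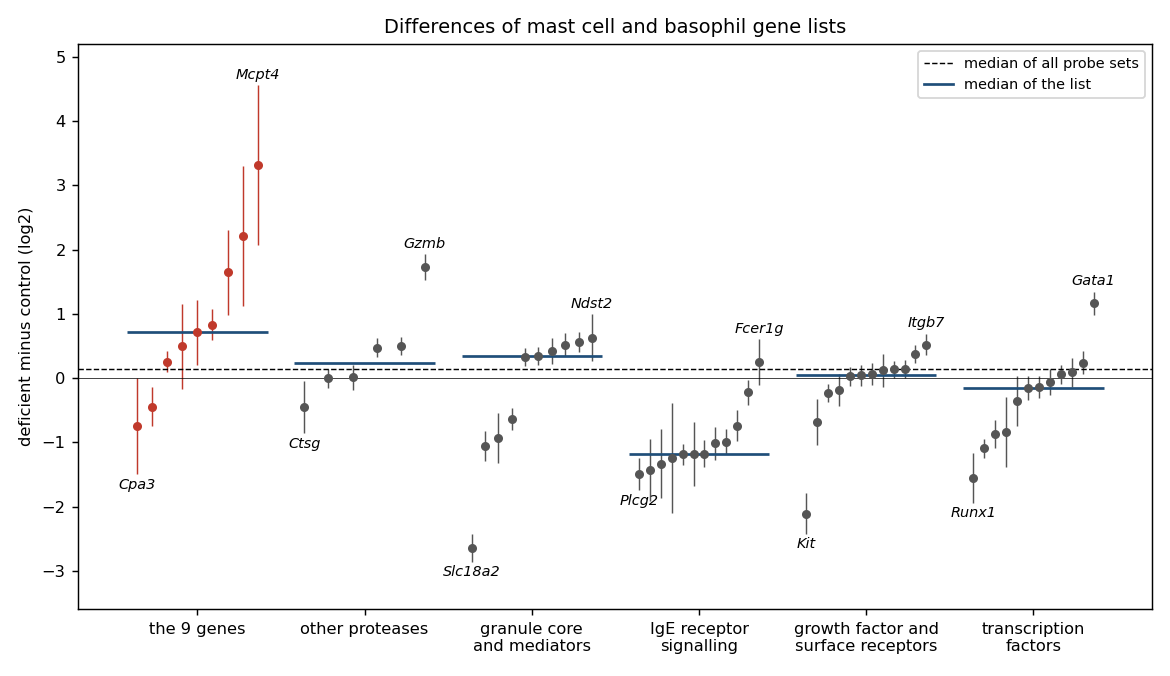
Difference of the arrays labelled deficient minus the control arrays (log2, bars are limma's SE) for each measured gene of 6 lists, sorted within each list, with the list median in blue and the median of all probe sets (0.15) dashed. The 9 genes run from −0.75 for Cpa3 to 3.32 for Mcpt4, and the IgE receptor signalling list has a median of −1.18.

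The listed growth factor and surface receptors of these cells gave no common direction. Without overlap, 3 of the 12 measured were lower and 4 higher, against 14.0% and 38.9% of all probe sets. Of the growth factor and cytokine receptors among them, Kit and Csf2rb were lower without overlap. The groups overlapped for Csf2rb2 (difference −0.18) and Il3ra (difference 0.029), which were not among the 4 genes with the smallest unadjusted p. Kit, the stem cell factor receptor on which mast cells depend and which also served to sort the cells, read 7.70 and 8.501 on the arrays labelled deficient, against 10.21 and 10.21 on the control arrays (difference −2.11, SE 0.32, adjusted p = 0.288). Its lowest value fell on deficient replicate 1, the array with the highest chymase and tryptase values. Csf2rb, the common β chain of the IL-3, IL-5 and GM-CSF receptors, differed by −0.68 (SE 0.36, adjusted p = 0.459) and Itgb7, an integrin used by mast cell progenitors to reach tissues, by 0.52 (SE 0.17, adjusted p = 0.409). Mrgprb1, of a receptor family of mast cells and sensory neurons, differed by 0.38 (SE 0.14, adjusted p = 0.421). Of 13 listed receptors 12 were measured, with a median of 0.052. At an unadjusted p under 0.05, 1 was lower and 1 higher, against 5.25% and 6.64% of all probe sets.

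All 12 listed transcription factors of mast cells and basophils were measured, with 3 lower and 1 higher at an unadjusted p under 0.05 and a median of −0.15, against 5.25% and 6.64% of all probe sets. Gata2, which is needed for both cell types, read 7.14 and 7.39 on the arrays labelled deficient, against 7.95 and 8.32 on the control arrays (difference −0.87, SE 0.21, adjusted p = 0.385). Gata1, which works in mast cells, erythroid cells and megakaryocytes, read 8.87 and 8.52 on the arrays labelled deficient, against 7.52 and 7.54 on the control arrays (difference 1.16, SE 0.19, adjusted p = 0.291). Spi1, which encodes PU.1, differed by −1.09 (SE 0.15, adjusted p = 0.270) and Runx1, a core blood factor, by −1.55 (SE 0.39, adjusted p = 0.389).

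Marker lists of other cell types differed in which array labelled deficient was higher, and their part in the result was not tested. The sums below add array values after conversion from log2 to a linear scale, and none of the markers read 0. Deficient replicate 1 was the highest array for 30.8% of all probe sets. All 9 macrophage markers were measured, 6 of 9 were highest on deficient replicate 1, and their sum was 2853 and 1663 on the arrays labelled deficient, against 803 and 934 on the control arrays. All 8 stromal and endothelial markers were measured, and 4 of 8 were highest on deficient replicate 1. Their sum was 2369 and 1908 on the arrays labelled deficient, against 715 and 686 on the control arrays. Sparc weighed most in that sum on the arrays labelled deficient, at 10.38 and 9.98 (log2), against 6.19 and 6.56 on the control arrays. Of the 8 markers, 7 had a higher mean in the deficient group and 1 a lower mean. Erythroid markers (9 of 10 measured) summed to 5213 and 6675 on the arrays labelled deficient, against 1176 and 1209 on the control arrays, with the higher sum on deficient replicate 2. The same sum over the 9 mast cell and basophil genes was 3604 and 1942 on the arrays labelled deficient, against 1083 and 1489.7 on the control arrays. Mcpt4 (10.16, log2) and Tpsb2 (9.68) weighed most in it on deficient replicate 1, and Mcpt8 on each other array. Of these 9 genes, 7 had a higher mean in the deficient group and 2 a lower mean. Stem cell markers (8 of 8 measured) summed to 979 and 1271 on the arrays labelled deficient, against 6083 and 5709 on the control arrays. In all 8, both arrays labelled deficient lay below both control arrays, against 14.0% of all probe sets. Megakaryocyte markers (5 of 8 measured) summed to 1216 and 608 on the arrays labelled deficient, against 3358 and 3935 on the control arrays. Pf4 weighed most in that sum, at 9.55 and 7.43 (log2) on the arrays labelled deficient, against 11.23 and 11.40 on the control arrays. Itga2b (7.13 and 6.97) and Vwf (6.94 and 7.002) were close to equal on the arrays labelled deficient.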

How the data were processed

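The series holds 4 Affymetrix Mouse Gene 1.0 ST arrays of gene expression, 2 in each group. The values deposited by the authors are log2 expression values per probe set, and per the submitters' processing notes they were made with RMA and Partek, without versions. Their genome build is not stated in the labels. The table ran from 1.98 to 13.7 and was used without further normalization. All 4 columns were matched to samples. Arrays carry no read depth, and the small number of arrays limits how precise any difference is.

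Gene names came from the platform annotation, with symbols updated by Entrez number through RefSeq (GRCm38.p6). Of 35556 probe sets 21789 had 1 symbol, 1621 several and 12146 none, and the brightest probe set stood for a gene. Groups were compared with limma 3.58.1 (lmFit, eBayes, genotype as the only term) in R 4.3.3, with Benjamini-Hochberg adjustment over all probe sets. The procedure was tested on simulated data. Figures used matplotlib 3.10.9 in Python 3.11.15.

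The members and lists were chosen with earlier results of these data known. Named were all members, Gabpa, up to 4 genes per list by unadjusted p, and the 3 genes nearest in pattern to the member with the widest range. Cluster neighbours of the members were also named, after their values were seen. Fcer1g, Csf2rb2 and Il3ra were named outside this rule too. Alternatives were cyclic loess, quantile normalization, median subtraction, removal of the dimmer 50% of probe sets, a replicate block, trended robust eBayes, and leaving out each array.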

Additional observations from a re-analysis of the deposited data

How the results depend on the processing

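The 2 arrays per group limit the precision. With limma, 0 probe sets passed an adjusted p under 0.05 as reported and under each of the 10 alternatives, and 4225 had an unadjusted p under 0.05 as reported. The lowest adjusted p of any member under any alternative was 0.228. With all 4 arrays kept, each of the 9 members kept its sign under cyclic loess, quantile normalization and median subtraction. The replicate block, trended robust eBayes and removal of the dimmer 50% of probe sets cannot change a difference in this design. Their signs therefore add no check. Ms4a2 had no value without the dimmer 50% of probe sets. The labels do not say that replicate numbers pair the samples, and deviations of same-numbered arrays correlated at −0.088. With a replicate block the members' differences were the same (0.83 for Mcpt8), and at an unadjusted p under 0.05 1 member was lower (Cpa3, −0.75), against 0 without the block, and 1 was higher. The probe sets at an unadjusted p under 0.05 numbered 2312 of 17778 without the dimmer 50%, and from 2304 (without control replicate 1) to 4309 with 1 array left out. With 1 array left out, where the lone array is assumed to vary like the other group, the members lower at an unadjusted p under 0.05 ran from 0 to 1 and those higher from 0 to 4. The count of higher members was 0 without control replicate 1 and 4 without either array labelled deficient; the single lower member, without control replicate 1, was Hdc. The median difference of the members ran from 0.56 to 0.74. Cpa3 ran from −1.57 to 0.076 and Fcer1a from −0.39 to 1.37, and both changed sign without deficient replicate 1. The median of all probe sets was 0.15, and −0.0045 after cyclic loess, and with all arrays kept the Ms4a2 difference ran from 0.064 to 0.26.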

Other observations

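Eosinophil genes, 6 of 8 of them measured, showed 1 lower and 1 higher at an unadjusted p under 0.05 (limma), with a median difference of 0.21, against 5.25% lower, 6.64% higher and a median of 0.15 for all probe sets. Prg2, the eosinophil major basic protein, which basophils and mast cells also make, read 9.10 and 9.78 on the arrays labelled deficient, against 8.38 and 8.88 on the control arrays (difference 0.81, SE 0.33, adjusted p = 0.426). Its relative Prg3 had the opposite sign, with 6.35 and 6.402 on the arrays labelled deficient, against 6.99 and 6.85 on the control arrays (difference −0.54, SE 0.15, adjusted p = 0.400). Ccr3, the eotaxin receptor, differed by 0.59 (SE 0.14, adjusted p = 0.373) and Epx, eosinophil peroxidase, by 0.28 (SE 0.27, adjusted p = 0.603). In 0 of the 6 genes was deficient replicate 1 the highest array, against 30.8% of all probe sets.

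All 7 listed cytokine genes of activated mast cells and basophils were measured, with 0 lower and 1 higher at an unadjusted p under 0.05 and a median of 0.26, against 5.25% and 6.64% of all probe sets. The higher gene was Csf2, which encodes GM-CSF, at 6.02 and 5.73 on the arrays labelled deficient, against 4.98 and 5.13 on the control arrays (difference 0.82, SE 0.18, adjusted p = 0.363). Il4, a cytokine of basophils and mast cells, differed by 0.60 (SE 0.28, adjusted p = 0.440), Tnf by 0.41 (SE 0.23, adjusted p = 0.471) and Il6 by 0.26 (SE 0.22, adjusted p = 0.565). Neutrophil and monocyte markers summed on a linear scale to 10497 and 8408 on the arrays labelled deficient, against 11337 and 9510 on the control arrays. That sum hides opposite directions. Of the 9 measured markers, 2 were lower and 4 higher without overlap, against 14.0% and 38.9% of all probe sets. Mpo, which weighed most, differed by −0.86 and S100a8 by 0.78. B and T cell markers summed to 589.9 and 765 on the arrays labelled deficient, against 599 and 479 on the control arrays.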
